A study of Mus musculus with 6 samples.

Results

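9 genes of the T helper 17 (Th17) programme were followed in thymocytes with and without Klf4. They were taken by name, as all probes whose platform symbol was Il17a, Il17f, Il21, Il22, Il23r, Ccr6, Rora, Ahr or Stat3, which gave 13 of the 25697 probes on the array and 9 of its 16593 named genes. Of the genes, 6 had 1 probe, Ccr6 and Rora had 2 each and Stat3 had 3. The knockout (KO) group held 3 Klf4fl/fl mice with the CD4-Cre transgene, and the control group held 3 Klf4fl/fl mice without it. All mice were of the C57/BL6 background and 8 to 10 weeks old, and nothing was done to the cells beyond isolation. Per the labels, thymocytes were enriched by CD4 to a purity above 94%, which takes cells at the CD4+CD8+ double-positive stage (DP) together with those at the CD4 single-positive stage (SP4). Cre under the Cd4 promoter acts from the DP stage on, so cells of earlier stages carry the floxed gene intact. The series asks how KLF4, a zinc-finger transcription factor, regulates T cell function.

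Th17 cells are CD4 T helper cells that secrete IL-17A, IL-17F, IL-21 and IL-22 and defend mucosal surfaces against fungi and extracellular bacteria. Naive CD4 T cells enter this lineage when IL-6 and TGF-beta act together with a T-cell receptor signal. STAT3 carries the signal of IL-6, IL-21 and IL-23 to the nucleus, and ROR-family factors with AHR then act on the cytokine genes. The lineage forms mostly in the periphery after stimulation, although the thymus also holds small innate-like populations that can make IL-17.

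The promoters of Il17a, which encodes the cytokine that names the lineage, and of its receptor genes Il23r and Ccr6 are shown. Their windows end at the genes' first start sites and hold 1 or more of the motifs marked here. Each gives the 250 bases before the start site in RefSeq assembly GRCm38.p6, and capitals mark CACCC (the core of sites bound by KLF proteins), AGGTCA (the ROR half-site) and TTCNNNGAA (the STAT core), each on either strand.
Il17a promoter, chr1:20730655-20730904, plus strand: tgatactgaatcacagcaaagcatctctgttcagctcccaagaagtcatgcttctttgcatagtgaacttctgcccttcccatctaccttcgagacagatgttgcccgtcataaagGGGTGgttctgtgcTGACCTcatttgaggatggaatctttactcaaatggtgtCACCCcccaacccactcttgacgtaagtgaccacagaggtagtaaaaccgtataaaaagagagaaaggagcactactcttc
Il23r promoter, chr6:67491856-67492105, minus strand: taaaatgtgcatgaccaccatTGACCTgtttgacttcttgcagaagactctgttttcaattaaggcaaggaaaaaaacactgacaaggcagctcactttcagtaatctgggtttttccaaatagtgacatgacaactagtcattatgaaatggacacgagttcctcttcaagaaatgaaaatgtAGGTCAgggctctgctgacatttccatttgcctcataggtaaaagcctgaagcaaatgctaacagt
Ccr6 promoter, chr17:8235793-8236042, plus strand: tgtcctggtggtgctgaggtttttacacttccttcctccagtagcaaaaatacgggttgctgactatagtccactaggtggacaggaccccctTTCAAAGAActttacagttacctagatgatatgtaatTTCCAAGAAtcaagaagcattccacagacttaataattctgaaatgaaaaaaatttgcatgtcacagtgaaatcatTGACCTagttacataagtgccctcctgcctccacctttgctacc
The Il17a window held 2 CACCC and 1 AGGTCA, that of Il23r 2 AGGTCA, and that of Ccr6 1 AGGTCA and 2 TTCNNNGAA, with no overlap between motifs. A second Ccr6 window, at chr17:8242276-8242525 and not shown, held none of these motifs. The windows of Il17f, Il21, Rora and Stat3 held some of them and are not shown. The table held 9 windows for 8 of the genes, of which 5 had CACCC, 4 had AGGTCA and 1 had TTCNNNGAA. Over all 32851 windows of this length 52.0% had CACCC, 14.0% had AGGTCA and 7.02% had TTCNNNGAA, so CACCC is common everywhere. A match is a run of letters and no evidence of binding in these cells.

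The deposited values are scores, centred at 0 and scaled to unit SD on each array, so a difference is given in z units (SDs of 1 array's probes) after quantile normalisation. No fold change can be stated, because the scale before standardisation is unknown. Klf4, the deleted gene, was lower in KO mice on 2 of 3 probes. On ILMN_1241903 KO mice read -0.555, -0.758 and -0.696, against 0.05, 0.109 and -0.145 in control mice, a difference of -0.674 (limma adjusted p = 0.000365). On ILMN_1221264 the difference was -0.376 (limma adjusted p = 0.0232), a call lost in each fit without KO mouse 2, control mouse 1 or control mouse 2, while ILMN_2999439 read 0.516 ± 0.189 in KO mice and 0.479 ± 0.159 in control mice (SD, n = 3 each). Whether the third probe lies in the deleted part is not known here. Of the 14 thymocyte markers, 12 were measured, with a median percentile of 98.3 to 98.6 in KO arrays and of 98.7 to 98.8 in control arrays. Cd3e stood at percentile 99.5 and Cd4 at 86.8, but Cd8a, which DP cells carry, stood at 9.97, so a low percentile on this array does not show that a transcript is absent. In such bulk samples fewer cells of a type and less RNA per cell cannot be told apart. The lists for gamma-delta, NKT and innate lymphoid cells (8 of 10 markers measured) had median percentiles of 46.5 to 55.1 in KO arrays and 50.1 to 55.3 in control arrays, and those for B cells (4 of 5) had 48.2 to 50.3 in KO arrays and 46.3 to 53.5 in control arrays. The myeloid list (7 of 8) stood at 75.8 to 84.3 in KO arrays and 78.8 to 82.8 in control arrays. The epithelial list (2 of 4) stood at 50.8 to 56.2 in KO arrays and 47.4 to 55.0 in control arrays, and the erythroid list (2 of 3) at 17.0 to 28.3 in KO arrays and 19.4 to 35.9 in control arrays. Scores have no true zero, so no marker can be called absent, and the part of other cells in the values that follow was not tested.

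Of the 9 genes, 5 lay near the bottom of the array in these unstimulated cells, meaning that all their probes had a mean percentile under 40. These were Il22 at 6.11, Ahr at 7.87, Il17f at 8.26, Il23r at 10.2 and Il21 at 22.3. Il17a stood above that limit at 44.7, which is still below the middle of the array. The second probe of Rora was low at 32.7. The other probes stood between 63.6 for Ccr6 probe ILMN_2639012 and 94.4 for Stat3 probe ILMN_2698046. Percentiles also depend on how well each probe binds, so they do not order the transcripts.

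**Figure D1:**
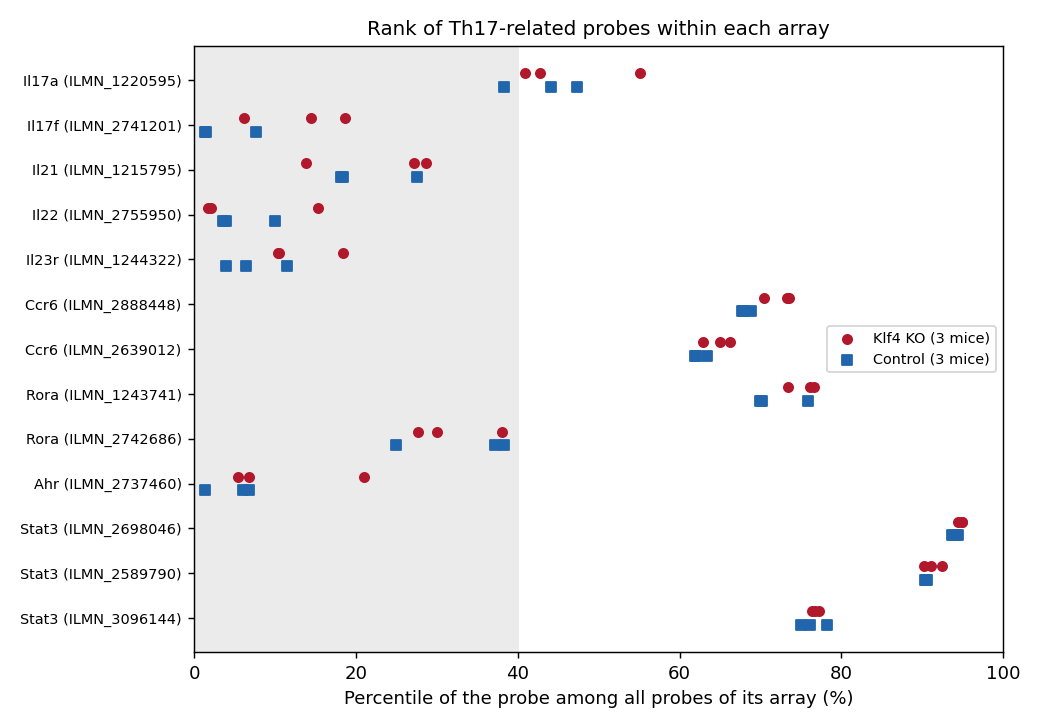
Percentile of each Th17-related probe (rows) among all probes of its array, for 3 Klf4 KO mice (circles) and 3 control mice (squares), with the range under percentile 40 shaded. Il22, Ahr, Il17f, Il23r and Il21 lie in the shaded range, and Stat3 probe ILMN_2698046 lies between 93.6 and 94.9 in every mouse.

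None of the 13 probes passed the test between genotypes: limma called 0 of them, against 0.00778% of all probes (2 of 25697, both of Klf4). Of the 7 member probes at or above the 40th percentile of mean score, 0 were called when only such probes were tested, against 0.013%. At an unadjusted p under 0.05 there were 3 of 13 (23.1%), all higher in KO mice, on probes of Ccr6, Rora and Il17f, against 7.48% of all probes in either direction and 3.48% in the higher direction. After quantile normalisation, all 3 KO values lay above all 3 control values on 2 of 13 probes, 1 of Ccr6 and 1 of Stat3. This pattern was seen in 6.13% of all probes. KO values lay below all controls on 0 of 13 probes, against 6.52%. The KO mean was above the control mean on 11 of 13 probes (84.6%), against 50.1% of all probes. The median difference was 0.0487 over the 13 probes and 0.000124 over all probes, with median SEs of 0.0504 and 0.0472. Among the thymocyte markers 0 were called. The KO mean was the lower one for 8 of 12 markers, against 8478 of 16593 genes on the array. For the other 4, Ccr9, Cd4, Cd3e and Satb1, it was higher, by 0.0228 or less. The list median was -0.0167, and that of all genes was -0.00129. The 3 markers with the smallest p were all lower in KO mice. Themis, which acts in positive selection, differed by -0.239 (limma adjusted p = 0.462), Dntt, which adds bases during receptor gene assembly, by -0.137 (limma adjusted p = 0.512), and the recombinase gene Rag1 by -0.0767 (limma adjusted p = 0.729). All 3 KO mice lay below all 3 control mice on these 3 genes after quantile normalisation, a pattern seen in 6.52% of all probes. With the scores as deposited, Dntt read 2.94 in KO mouse 2 and 2.85 in control mouse 3. Rag1 read 3.03 and 2.98 in the same mice, so the groups overlapped on both genes. The part of the thymocyte markers in the Th17-related values was not tested. Probes of a gene share its transcript, and these genes were chosen with earlier results known, so no test is given over the set.

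**Figure D2:**
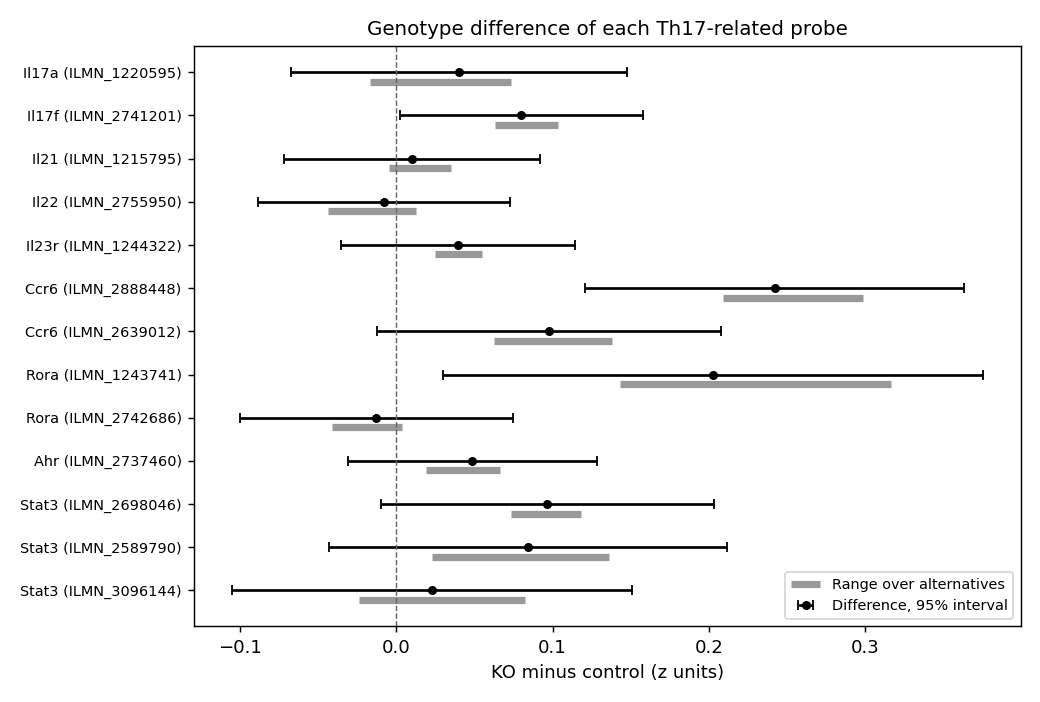
Difference between KO and control means of each Th17-related probe in z units (points) with limma's 95% interval (black bars) and the range of the difference over the alternative settings (grey bars). Intervals for 1 probe each of Ccr6, Rora and Il17f leave out 0, and 0 probes passed after adjustment over all probes.

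Among the cytokines, Il17a did not differ beyond the spread between mice. KO mice 1 to 3 read -0.41, -0.59 and -0.573 z units, against -0.613, -0.558 and -0.522 in control mice 1 to 3. KO mouse 1 was the highest of the 6, at percentile 55.0, while the other 2 KO mice fell within the control range of 38.3 to 47.4. The means were -0.524 ± 0.0994 in KO mice and -0.564 ± 0.0457 in control mice (SD, n = 3 each), a difference of 0.0402 with a 95% interval from -0.0671 to 0.148 (SE 0.0507, limma adjusted p = 0.902). Without KO mouse 1 the difference was -0.0169.

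Il17f, which encodes a close relative of IL-17A and is the next annotated gene after Il17a on chromosome 1, had the largest cytokine difference. It read -0.735, -0.758 and -0.811 in KO mice, against -0.872, -0.871 and -0.8 in control mice. After quantile normalisation KO mouse 3 lay just below control mouse 3, so the groups overlapped by that pair. With the scores as deposited these mice read -0.815 and -0.828, and the groups did not overlap. The means were -0.768 ± 0.0389 in KO mice and -0.847 ± 0.0414 in control mice (SD, n = 3 each), and the difference was 0.0798 (SE 0.0367, interval 0.00208 to 0.158, limma adjusted p = 0.657). All 6 values stood at percentile 18.7 or below, so the difference was between arrays that all ranked the probe near the bottom.

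Il21, a cytokine that STAT3 induces and that signals back through STAT3, read -0.761, -0.681 and -0.689 in KO mice, against -0.737, -0.687 and -0.737 in control mice. The groups overlapped fully, with a difference of 0.0101 (interval -0.0716 to 0.0918, limma adjusted p = 0.976). Il22, which encodes a cytokine acting on epithelium, read -0.865, -0.857 and -0.752 in KO mice, against -0.783, -0.836 and -0.832 in control mice. KO mouse 3 was the highest and KO mouse 1 the lowest of the 6, although control mouse 3 was the lowest with the deposited scores. The difference of -0.00761 (interval -0.0883 to 0.073, limma adjusted p = 0.982) changed sign to 0.0041 with the deposited scores.

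**Figure D3:**
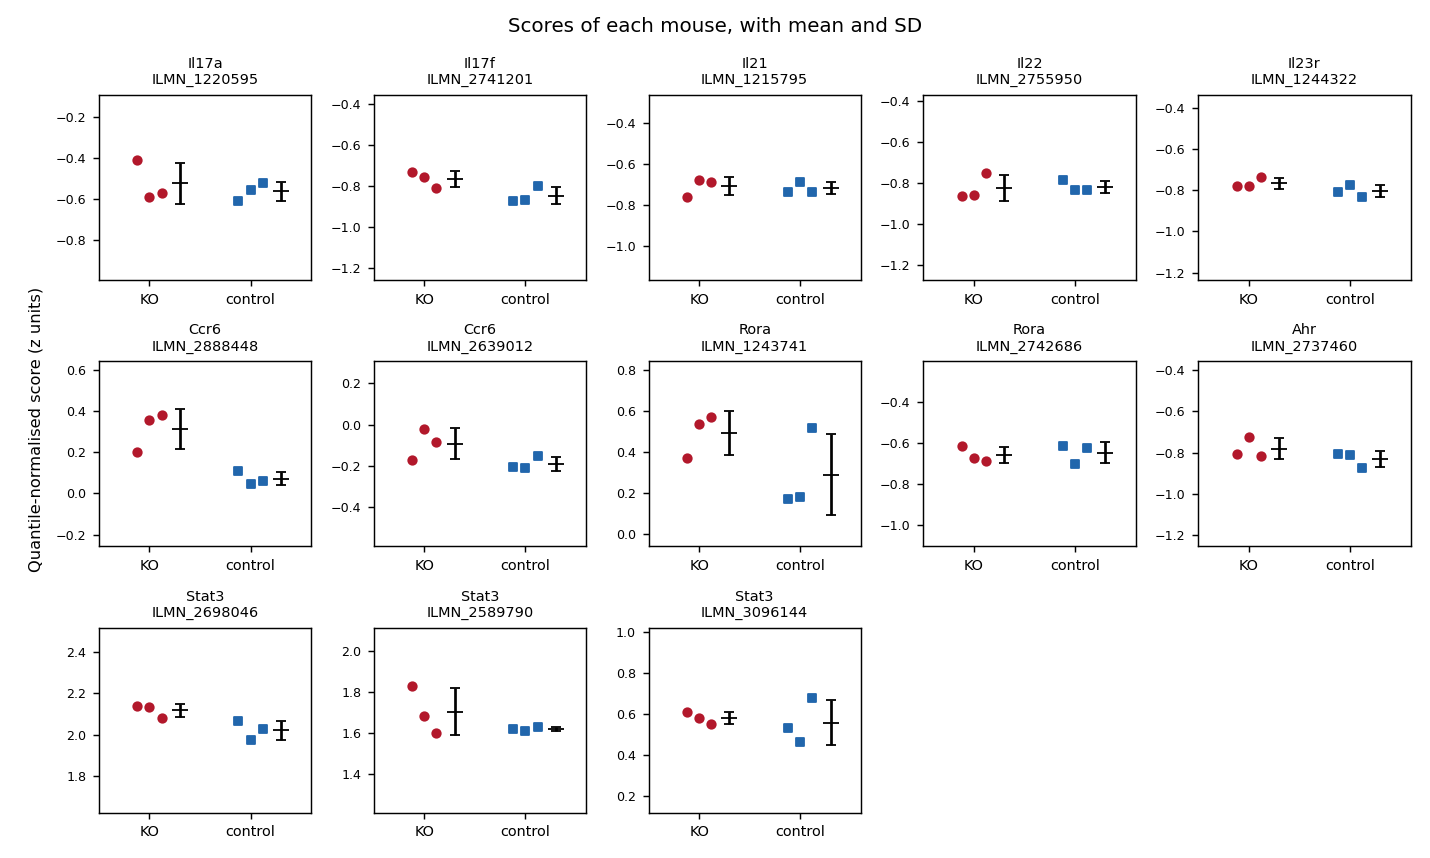
Quantile-normalised scores in z units of 3 KO mice (circles, left) and 3 control mice (squares, right, mouse 1 to 3 within each group) for each Th17-related probe, with the mean and SD beside them; every panel spans the same number of z units. On Ccr6 probe ILMN_2888448 all KO values (0.201 to 0.38) lie above all control values (0.0452 to 0.107), and on Rora probe ILMN_1243741 control mouse 3 lies among the KO mice.

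Of the receptors, Ccr6 had the largest difference of the 9 genes over all 6 mice, though it did not pass, and without control mouse 3 it was 0.237 against 0.316 for Rora. CCR6 is the receptor of the chemokine CCL20 and guides Th17 cells to mucosa, and B cells and some regulatory T cells carry it as well. On probe ILMN_2888448 KO mice read 0.201, 0.359 and 0.38, against 0.107, 0.0452 and 0.0619 in control mice. Every KO mouse was above every control mouse, with KO mouse 1 nearest to the controls. The means were 0.314 ± 0.0978 in KO mice and 0.0715 ± 0.0322 in control mice (SD, n = 3 each), and the difference was 0.242 (SE 0.0573, interval 0.121 to 0.363, limma adjusted p = 0.344), and the mean percentile was 72.4 in KO mice and 68.2 in control mice.

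The second Ccr6 probe, ILMN_2639012, gave a smaller difference in the same direction. It read -0.174, -0.0241 and -0.0834 in KO mice, against -0.209, -0.212 and -0.154 in control mice. KO mouse 1 was again the lowest of its group and lay below control mouse 3. The difference was 0.0976 (interval -0.0123 to 0.208, limma adjusted p = 0.712). Foxp3, whose product defines regulatory T cells, read 0.266, 0.313 and 0.286 in KO mice, against 0.052, 0.0709 and 0.123 in control mice (limma adjusted p = 0.361), also without overlap, and its part in the Ccr6 values was not tested.

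Il23r encodes the subunit of the IL-23 receptor that binds STAT3 and helps to keep Th17 cells in their state. It read -0.78, -0.781 and -0.736 in KO mice, against -0.809, -0.774 and -0.832 in control mice. KO mouse 3 was the highest, and control mouse 2 stood above the other 2 KO mice. The difference was 0.0393 (interval -0.0355 to 0.114, limma adjusted p = 0.852), with percentiles of 10.4 to 18.4 in KO mice and 3.9 to 11.5 in control mice.

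Among the regulators, the 2 probes of Rora gave differences of unlike size, and neither was called. RORA is a nuclear receptor that shares the ROR element with its T-cell relative and contributes to Th17 differentiation. On ILMN_1243741 KO mice read 0.371, 0.538 and 0.571, against 0.172, 0.182 and 0.519 in control mice. Control mouse 3 stood with the KO mice, and the other 2 control mice were below all of them. The means were 0.494 ± 0.107 in KO mice and 0.291 ± 0.197 in control mice (SD, n = 3 each), and the difference was 0.203 (SE 0.0816, interval 0.0297 to 0.375, limma adjusted p = 0.589). Without control mouse 3 it was 0.316 (limma adjusted p = 0.302).

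On the other Rora probe, ILMN_2742686, KO mice read -0.615, -0.672 and -0.686, against -0.612, -0.701 and -0.622 in control mice. These ranges overlapped fully, with a difference of -0.0127 (interval -0.1 to 0.0746, limma adjusted p = 0.973). Which Rora transcripts each probe detects is not known here.

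Ahr encodes the aryl hydrocarbon receptor, a ligand-gated factor that Th17 cells need for IL-22. It read -0.806, -0.722 and -0.817 in KO mice, against -0.806, -0.812 and -0.873 in control mice. KO mouse 2 stood alone at the top at percentile 21.0, and all others were at 6.79 or below. The difference was 0.0487 (interval -0.0311 to 0.128, limma adjusted p = 0.811), and 0.019 without KO mouse 2 or 0.0272 without control mouse 3. Of its target genes in the fixed list, 5 of 5 were measured and 0 were called in either direction. Their differences ran from -0.0516 for Tiparp to 0.0143 for Cyp1a1, and 1 was above 0, with a median of -0.0141. Over the whole array 0.00778% of probes were called. Taking 1 probe per gene, 0 of 16593 genes were called and 48.9% lay above 0. The probe with the highest mean was taken, here and below. For Klf4 that was ILMN_2999439, so its 2 called probes do not enter this count.

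Stat3 had 3 probes, all in the upper part of the array. On ILMN_2698046 KO mice read 2.14, 2.13 and 2.08, against 2.06, 1.97 and 2.02 in control mice. The groups did not overlap, but KO mouse 3 and control mouse 1 nearly touched. The difference was 0.0967 (SE 0.0504, interval -0.01 to 0.203, limma adjusted p = 0.704).

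On ILMN_2589790 Stat3 read 1.83, 1.69 and 1.6 in KO mice, against 1.62, 1.61 and 1.63 in control mice, a difference of 0.0844 (limma adjusted p = 0.791). It was 0.0231 without KO mouse 1 and 0.136 without KO mouse 3. KO mice 1 and 2 were above all controls and KO mouse 3 was below them. On ILMN_3096144 it read 0.612, 0.58 and 0.552 in KO mice, against 0.533, 0.465 and 0.678 in control mice, a difference of 0.0229 (limma adjusted p = 0.964). Control mouse 3 was the highest there, and without control mouse 2 the difference was -0.024. Of 6 STAT3 target genes 0 were called, against 0 of 16593 genes at 1 probe each and 0.00778% of all probes. Of their differences 2 were above 0 (48.9% of all genes), with a median of -0.0164. Socs3, the feedback inhibitor of the pathway, differed by 0.0274, and Mcl1, a survival factor, by -0.0979 (limma adjusted p = 0.672).

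Across mice the highest member values did not all fall to 1 animal. KO mice 1 to 3 were the highest of the 6 on 4, 3 and 4 of the 13 probes, against 1, 0 and 1 for control mice 1 to 3. Over all 25697 probes KO mice were the highest on 5069, 4260 and 3878, and control mice on 4016, 4148 and 4326. The lowest member value fell to KO mice on 2, 0 and 1 probes and to control mice on 3, 5 and 2. Over all probes the lowest fell to KO mice on 5161, 4261 and 3719, and to control mice on 4085, 3952 and 4519. The median deviation from a probe's own mean over the 6 arrays was 0.00881, 0.0344 and 0.0104 in KO mice 1 to 3, against -0.0368, -0.0523 and -0.0111 in control mice 1 to 3. Over all probes it was between -0.00148 and 0.00082 on every array.

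The rest of the pathway, on fixed lists of receptors and kinases, other regulators, ligands and targets, gave no call either. Of 56 listed genes 51 were measured, and limma called 0 higher and 0 lower, against 0 of 16593 genes at 1 probe each. Over all probes 0.00778% were called. At an unadjusted p under 0.05 there were 4 (7.84%), against 7.59% of all genes, taking 1 probe per gene. Differences above 0 numbered 27 of 51, with a median of 0.00218, and over all genes 48.9% were above 0 with a median of -0.00129. Upstream of STAT3, Il6ra, the IL-6-binding receptor chain, read -0.0571, -0.174 and 0.0686 in KO mice, against -0.191, -0.217 and -0.263 in control mice. The groups did not overlap, and the difference was 0.17 (SE 0.0588, limma adjusted p = 0.537). Smad2, which transmits the TGF-beta signal, read 0.126, 0.0883 and 0.299 in KO mice, against 0.335, 0.342 and 0.376 in control mice. It was below all controls in every KO mouse, with a difference of -0.18 (SE 0.0595, limma adjusted p = 0.515). Tgfbr1, the type I receptor of TGF-beta, differed by -0.117. Of 18 receptor and signalling genes 10 were above 0 (median 0.0011), of 17 other regulators 12 were above 0 (median 0.0116), and of 6 ligands 3 were above 0 (median -0.00164). Among the regulators Foxp3 differed by 0.207, the clock repressor gene Nr1d1 by 0.151 and Nfkbiz, which encodes a cofactor of IL-17 induction, by -0.113. Ccl20, the ligand of CCR6, lay at percentile 8.16 and differed by -0.0208.

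**Figure D4:**
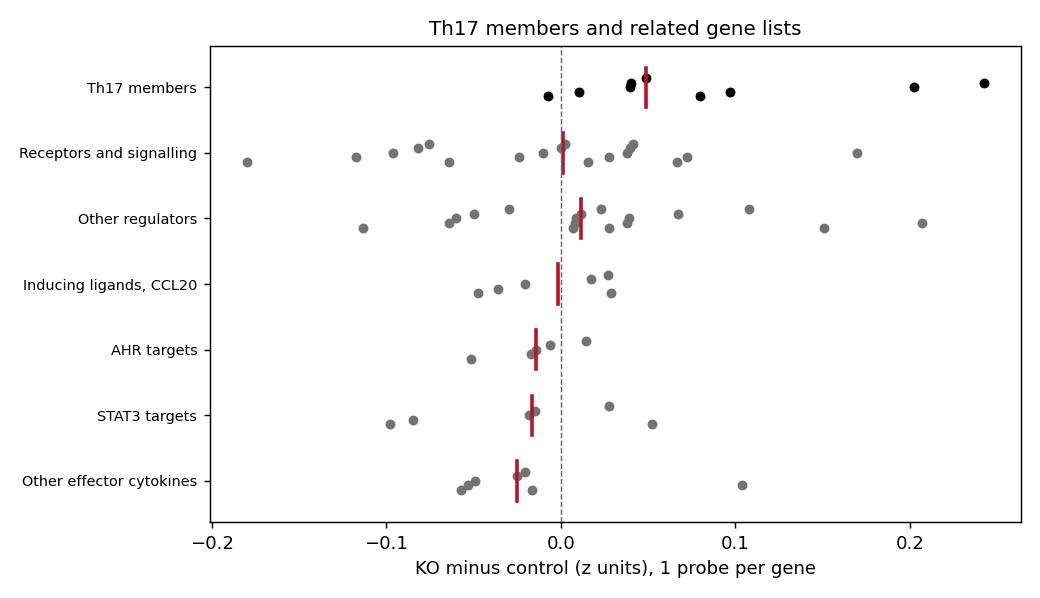
Difference between KO and control means in z units for each measured gene (points, each gene by its brightest probe) of the Th17 members and of related lists, with list medians as red bars. The members' median is 0.0487 and the medians of the other lists lie between -0.0248 and 0.0116.

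Likeness of pattern was measured by Pearson r over the 6 arrays, which share the genotype contrast. The genes most like Stat3 probe ILMN_2698046 were H3c10 (r = 0.996), Lsg1 (r = 0.99) and Pick1 (r = 0.989), among 14196 candidate probes at or above percentile 40. Those most like Ccr6 probe ILMN_2888448 were Tnfrsf10b (r = 0.995), Pik3r1 (r = 0.989) and Samhd1 (r = 0.988), among 14197. With so few arrays, 159 candidates had an r above 0.9 with the Stat3 probe and 124 with the Ccr6 probe, and the values describe these arrays only.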

How the data were processed

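Total RNA of CD4-enriched thymocytes from 3 KO and 3 control mice was measured on Illumina MouseRef-8 v2 bead arrays, 1 per mouse, per the labels. The deposited values are scores that the authors had brought to mean 0 and SD 1 on each array, as the columns show. The submitters' processing notes name GenomeStudio 2010.1. How background was treated, and whether intensities or logarithms were scaled, is not given in the sources used here. Detection p-values were not used. Probe symbols came from the platform annotation and were brought to current RefSeq symbols by gene identifier (GRCm38.p6): 23978 had 1 symbol, 0 several and 1719 none, and 23962 identifiers matched.

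The replicates are separate mice. Quartiles differed between arrays by up to 6.93% of the interquartile range, so scores were quantile-normalised. Pairwise r between arrays was 0.994 to 0.997, across probes. limma 3.58.1 (R 4.3.3) then compared the genotypes on all 25697 probes (two-sided, eBayes with a trend, Benjamini-Hochberg over all probes, threshold 0.05), since the rule asks for every member probe. The test was checked on simulated data. The simulated shifts were larger than any member difference and lay on probes brighter than most member probes. That check therefore does not show whether differences as small as those of the members would be called. A filter at the 40th percentile of mean score keeps 7 of the 13 member probes, from 4 genes. The text gives every member probe, Klf4, and part of the list genes with the smallest p. Members and lists were chosen with earlier results of these data known. The 3 mice per genotype limit the precision. The alternatives were the deposited scores, median centring, the filter, other variance models, array weights, the replicate number as a block, and leaving out each mouse.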

Additional observations from a re-analysis of the deposited data

How the results depend on the processing

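Over 13 alternatives, 0 member probes were called in any, and 152 of 163 recomputed member differences kept their direction. Many of the 163 could not turn, because the filter, the other variance models and the replicate block leave each difference as it was. A sign could turn only with the deposited scores, median centring, array weights or a mouse left out. Of the 11 that turned, Il22 turned to 0.0041 when scores were used as deposited and 0.00611 under median centring, and the others came from leaving out 1 mouse. Without 1 mouse the differences ranged from -0.0169 to 0.0731 for Il17a, from -0.00456 to 0.0353 for Il21, from -0.0438 to 0.0123 for Il22, from -0.0409 to 0.00366 for Rora probe ILMN_2742686 and from -0.024 to 0.0824 for Stat3 probe ILMN_3096144. They kept their sign but ranged from 0.019 to 0.0664 for Ahr, from 0.0231 to 0.136 for Stat3 probe ILMN_2589790, from 0.0245 to 0.0547 for Il23r, from 0.0627 to 0.138 for Ccr6 probe ILMN_2639012 and from 0.143 to 0.316 for Rora probe ILMN_1243741. The Ccr6 probe ILMN_2888448 ranged from 0.209 to 0.298 over all alternatives, with limma adjusted p from 0.159 to 0.792. The median member difference was 0.0967 with the filter, which leaves 7 probes, and 0.0466 to 0.0824 without 1 mouse.

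Over all probes the main counts were 0 higher and 2 lower. They were 1 and 1 without a variance trend, 3 higher with robust variance, 0 to 3 higher and 1 to 6 lower without 1 mouse (3 and 6 without KO mouse 3, 5 lower without KO mouse 1, 1 lower without control mouse 1, 1 higher without control mouse 3), and 6 and 6 with the replicate block. Whether equal replicate numbers pair mice is not given by the labels. Same-numbered mice correlated at -0.0339, 0.167 and 0.0347 in their deviations from the group means, and the other pairs at -0.172 to 0.11. With 3 mice per group these values cannot decide it. With the block 0 member probes were called. Klf4 probe ILMN_1221264 gave -0.376 without a variance trend (limma adjusted p = 0.105) and -0.435 to -0.336 without 1 mouse (limma adjusted p from 0.00349 to 0.184). Klf4 probe ILMN_2999439 ranged from -0.0524 to 0.14 without 1 mouse. The causes were not tested. Signal over background is unknown without detection p-values, which limits what can be said of the dim probes. These are the probes of Il17f, Il21, Il22, Il23r and Ahr, and Rora probe ILMN_2742686. The same holds for Il17a, which lay below the middle of the array.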

Other observations

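Cytokines of other effector lineages were also measured in these unstimulated cells, 7 of 8 listed. limma called 0 higher and 0 lower, and 1, Il10, had an unadjusted p under 0.05 (14.3% of the list, against 7.59% of all genes). Il10, which encodes an anti-inflammatory cytokine of regulatory and effector T cells, read -0.6, -0.512 and -0.544 z units in KO mice, against -0.701, -0.644 and -0.622 in control mice, with no overlap (difference 0.104, SE 0.0422, limma adjusted p = 0.589). The other 6 differences were below 0, from -0.057 for Il5, and 0 of them passed, while over all genes 48.9% lay above 0. Ifng, the Th1 cytokine gene, lay at percentile 56.0, Il4, that of Th2 cells, at 47.0, and Tnf at 66.8. Il10 itself lay at 38.3, Il5 at 26.4 and Csf2 at 25.8, all under the limit of 40 used for genes near the bottom of the array.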
